A study of Mus musculus with 6 samples.

Results

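The 39 genes described here encode the machinery that copies DNA in S phase, from the proteins that mark origins to the enzymes that supply nucleotides and the factors that rebuild chromatin behind the fork. They were chosen by name, as established replication and S phase genes, and found on the array through the RefSeq accession of each probe. They are 39 of the 23462 gene symbols on the array and are read by 55 probes. All 55 probes were well above background on all 6 arrays. Of the 39 genes, 37 could be tested between genotypes, and none of them passed a Benjamini-Hochberg adjusted p of 0.05 in limma. The median log2 change of the 37, knockout minus wild type, was -0.0035. Between the wild-type mice themselves the levels lay further apart: the 3 wild-type arrays spanned more than the difference between genotypes for 22 of the 24 genes measured on all 6 arrays (91.7%), against 78.0% of all 12644 features with a symbol and on all arrays.

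RNA of the colonic epithelium was profiled in 6 male mice, with 1 Agilent one-colour array for each. The control group is 3 wild-type mice and the other group is 3 mice labelled as miR-31 knockout; the labels name no treatment. Cells were flow separated before RNA extraction. The sort gate, the mouse strain and age, and the way in which miR-31 was removed are not given in the sources used here, so it is not known whether the gene was missing in all cells or in the epithelium only. The sequence that the knockout lacks is shown because it defines the groups. RefSeq (GRCm38.p6) places both mature arms on the minus strand of chromosome 4, and capitals mark the seed, bases 2 to 8.
mmu-miR-31-5p (chr4:88910614-88910635): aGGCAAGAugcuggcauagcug
mmu-miR-31-3p (chr4:88910577-88910599): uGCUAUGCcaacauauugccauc

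Before a cell enters S phase, the origin recognition complex, CDC6 and CDT1 load the MCM helicase onto DNA, a step called licensing. Cyclin E and its kinase then help to switch the loaded helicase on through CDC45 and the GINS complex, and polymerases, primase, the sliding clamp PCNA and its loader copy both strands. Most of these genes are known targets of the E2F transcription factors. In the colon, dividing cells sit in the lower part of the crypts, so replication transcripts come from a fraction of the epithelium. In RNA pooled from many cells, fewer dividing cells and less RNA per dividing cell cannot be told apart.

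Levels are given as log2 of the processed intensity minus the array's 75th percentile of intensity, so that 0 is the 75th percentile itself. They are compared between arrays for 1 probe and never between probes. The 75th percentile ranged from 3005 to 3539 and the share of probes well above background ranged from 66.6% to 75.6% over the arrays. The epithelial label was met: all 10 epithelial markers, Epcam, Cdh1 and villin among them, were well above background on all 6 arrays, and their summed intensity was 107 to 123 times the 75th percentile in wild type and 103 to 113 times in knockout. Other cells were present. All 10 T and NK cell markers were well above background on all 6 arrays, with sums of 3.71 to 5.69 in wild type and 3.96 to 6.83 in knockout. The same held for 5 of 8 B and plasma cell markers, 5 of 7 macrophage markers, 7 of 9 fibroblast and smooth muscle markers and 3 of 5 endothelial markers, while Pdgfra, Cdh5 and Kdr were well above background on no array. All wild-type arrays lay in row 2 of the slide and all knockout arrays in row 1, so row and genotype cannot be told apart. The scanning software marked 49 of the 330 measurements of the 55 probes as irregular spots, which is 14.8% against 10.9% over all probes. Marked spots were left out of the tests and of the mean levels per array. The marker sums kept them.

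E2F sites are the sequence feature most closely tied to this gene group, so the promoters were read first. RefSeq promoters (GRCm38.p6), from 250 bases before to 50 bases after the start of transcription, were matched for 32 of the 39 genes and gave 37 windows. Ccne2, Gins1, Gins2, Mcm4, Pole, Prim2 and Rfc2 were not matched. One of the E2F-type letter strings TTTCCCGC, TTTGGCGC, TTTCGCGC or TTTGCCGC, read on both strands with overlapping matches kept, stood in 13 of the 37 windows, or 35.1%, against 2.26% of all 32851 promoters. The genes with a match were Orc1, Cdc6, Cdt1, Mcm3, Mcm5, Mcm6, Mcm7, Gins3, Pola1, Pold1, Rfc3, Lig1 and Uhrf1. For a list of G2 phase and mitosis genes the same strings stood in 1 of 28 windows. The pattern was the other way round for the strings TTTGAA and TTCGAA, which resemble the CHR element known from mitotic genes: 16.2% of the replication windows held one, against 82.1% of the G2 and mitosis windows and 19.2% of all promoters. CCAAT stood in 56.8%, 78.6% and 37.4% of the same sets. The median GC content was 60.0% in the replication windows and 52.7% over all promoters, and its part in these shares was not tested. A match describes letters in a window and does not show that a factor binds there.

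**Figure D1:**
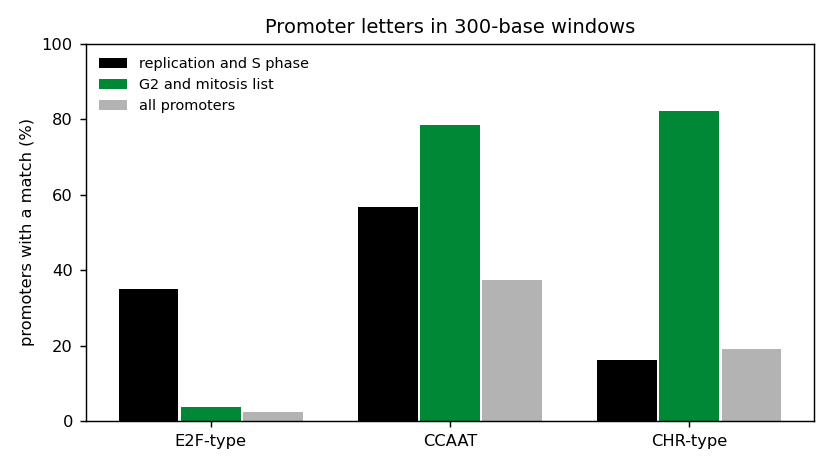
Share of 300-base promoter windows, in percent, that hold E2F-type, CCAAT or CHR-type letters, for the 37 windows of replication and S phase genes (black), the 28 windows of G2 and mitosis genes (green) and all 32851 promoters (grey). E2F-type letters stand in 35.1% of the replication windows and CHR-type letters in 82.1% of the G2 and mitosis windows.

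The 3 upstream windows below all hold E2F-type letters. Orc1 is shown because it had the smallest p of the group. The helicase genes Mcm5 and Mcm6 are shown because they had almost equal means in both genotypes. Whether the letters bear on a difference between genotypes was not tested. Each window runs for 250 bases up to the base before the start, on the strand of the gene, with E2F-type letters in capitals.
Orc1 (chr4:108579204-108579453, plus strand): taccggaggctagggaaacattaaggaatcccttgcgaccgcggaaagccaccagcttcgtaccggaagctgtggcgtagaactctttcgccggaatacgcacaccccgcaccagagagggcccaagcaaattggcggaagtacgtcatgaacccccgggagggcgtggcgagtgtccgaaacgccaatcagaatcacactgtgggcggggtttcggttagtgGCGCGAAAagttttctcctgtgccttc
Mcm5 (chr8:75109259-75109508, plus strand): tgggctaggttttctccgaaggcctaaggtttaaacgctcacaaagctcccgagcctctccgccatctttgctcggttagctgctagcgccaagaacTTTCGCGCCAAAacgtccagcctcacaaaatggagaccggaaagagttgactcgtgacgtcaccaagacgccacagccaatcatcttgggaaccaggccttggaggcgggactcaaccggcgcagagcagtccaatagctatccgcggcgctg
Mcm6 (chr1:128359706-128359955, minus strand): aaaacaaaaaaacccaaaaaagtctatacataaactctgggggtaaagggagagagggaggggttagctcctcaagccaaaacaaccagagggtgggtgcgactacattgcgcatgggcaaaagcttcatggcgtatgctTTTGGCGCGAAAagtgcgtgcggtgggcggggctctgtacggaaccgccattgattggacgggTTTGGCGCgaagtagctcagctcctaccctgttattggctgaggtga
In Orc1 the match begins 27 bases before the start. In Mcm5 a pair of overlapping matches begins 153 and 149 bases before it. In Mcm6 a similar pair begins 110 and 106 bases before it, and a further match begins 47 bases before it.

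The comparison of knockout with wild type asks whether loss of miR-31 alters the level of these transcripts. Over all 27916 features tested, 0.208% passed an adjusted p of 0.05 and 0 of the 37 replication genes did. At an unadjusted p under 0.05, 3 of the 37 were lower in knockout (Orc1, Orc6 and Prim2) and 1 was higher (Mcm3), beside a background of 7.55% lower and 3.18% higher. Lower features made up 70.3% of that background, but 56.0% after quantile normalization and 57.7% after normexp background correction. The size of the downward lean of all features thus depends on the scaling and on the background correction. With 1 array left out the share ran from 63.2% without wild-type replicate 2 to 75.1% without knockout replicate 2. Among the 24 genes measured on all 6 arrays, 3 had all knockout arrays below all wild-type arrays (Orc1, Orc6 and Rfc4) and 0 had them above, where the background was 12.2% and 4.66%. These counts are not read as a result about the group, since the background holds such features as well. The signs of the log2 change were split, with 19 negative and 18 positive, and the values ran from -1.11 to 0.61. The median over all features was -0.06, and over all features with a symbol -0.03. The 95% confidence interval lay within a 2-fold change in either direction for 33 of the 37 genes, against 84.6% of all features, with a median standard error of 0.18 log2 units. The exceptions were Orc1, Mcm3, Prim2 and Rpa2.

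**Figure D2:**
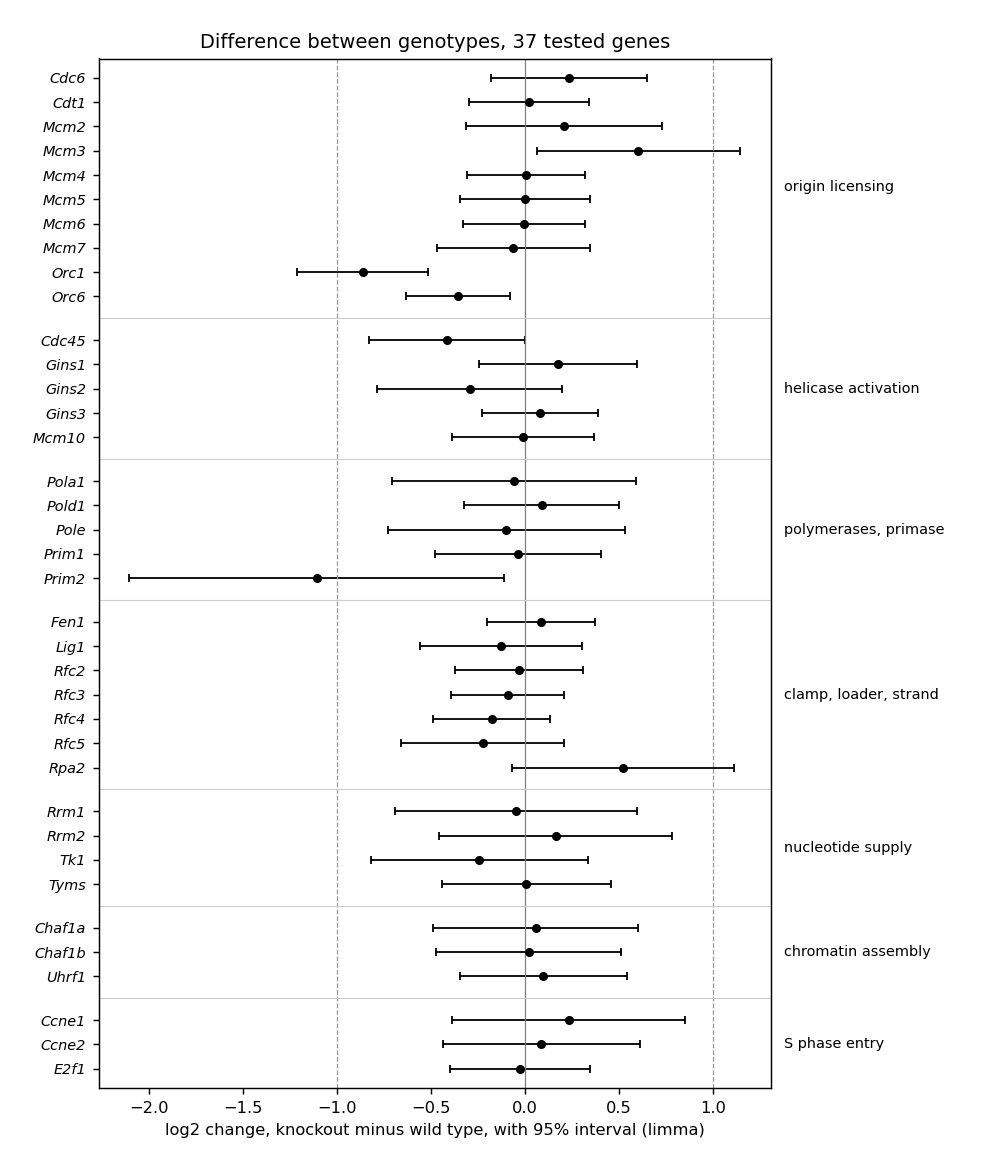
Log2 change, knockout minus wild type, of the 37 tested genes in 7 functional groups, with the 95% confidence interval from limma (n = 2 or 3 arrays per genotype). Dashed lines mark a 2-fold change. Most intervals span 0, the interval of Orc1 runs from -1.21 to -0.51, and that of Prim2 is the widest, from -2.10 to -0.11.

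Among the licensing genes Orc1 had the smallest p of the 37, and Mcm4, Mcm5 and Mcm6 had log2 changes within 0.01 of 0. The 10 genes had a median log2 change of 0.0033. Orc1 encodes the largest subunit of the origin recognition complex. Its levels were -1.13, -1.21 and -1.29 on wild-type replicates 1 to 3 and -1.96, -1.92 and -2.33 on knockout replicates 1 to 3. Every knockout array lay below every wild-type array, with a gap wider than the spread within either group. The log2 change was -0.86 ± 0.15 (SE; adjusted p = 0.125, limma), which is 0.551 of the wild-type level. The difference exceeded the spread between mice but did not pass the adjustment over all features. It was -0.84 between the arrays of slide column 1 and -0.72 between those of column 2. Between wild-type replicate 3 and knockout replicate 3, which lay in different columns, it was -1.03. Over 18 alternative settings it ranged from -0.94 to -0.73 and the adjusted p from 0.053 to 0.496. The second Orc1 probe was marked on wild-type replicates 1 and 2 and could not be tested. It read -1.59 on wild-type replicate 3 and -2.46, -2.41 and -2.56 on the knockout arrays. The marked spots on wild-type replicates 1 and 2 read -0.98 and -1.13, so the second probe also placed all knockout arrays below all wild-type arrays.

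Orc6 encodes the smallest subunit of the same complex. Its levels were 0.34, 0.54 and 0.41 in wild type and 0.10, -0.01 and 0.13 in knockout. The groups did not overlap, and the log2 change was -0.35 ± 0.12 (SE; adjusted p = 0.366, limma). Orc2, a subunit of the complex outside the 39 genes, read the other way, with a log2 change of 0.53 ± 0.18 on 2 unmarked arrays per genotype (adjusted p = 0.406, limma). Orc4, a further subunit outside the 39 genes, gave -0.06 ± 0.17 on 2 unmarked arrays per genotype (adjusted p = 0.927, limma). The tested subunits of the origin recognition complex thus did not share a sign, with Orc2 alone positive.

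Among the genes of the helicase ring, Mcm3 had the largest log2 change. Mcm3 read -0.12 and 0.21 on wild-type replicates 2 and 3, with replicate 1 marked, and 0.36, 0.96 and 0.62 in knockout. Its knockout arrays all lay above the unmarked wild-type arrays, with a log2 change of 0.61 ± 0.22 (SE; adjusted p = 0.42, limma). With the slide column as a block it was 1.09, the difference between the replicate 2 arrays. Without wild-type replicate 2 or 3 too few unmarked arrays were left for this probe, and the second probe, tested in its place, gave 0.37 and 0.29. On all 6 arrays the second probe gave 0.27 ± 0.16, with overlapping groups, and the remaining one, unmarked on only 1 wild-type array, read 0.53 there and 0.31, 0.08 and 0.06 in knockout, the opposite direction. The Mcm3 difference is therefore uncertain. Mcm2, on 2 arrays per genotype, read -0.44 and -0.02 in wild type and 0.03 and -0.06 in knockout, a log2 change of 0.21 ± 0.20 (adjusted p = 0.771, limma). Mcm7 read 1.14, 1.75 and 1.50 in wild type and 1.38, 1.36 and 1.47 in knockout, so that the wild-type arrays enclosed all knockout arrays. Mcm5 showed the same order, with 0.33, 0.77 and 0.52 against 0.45, 0.59 and 0.58. Mcm6 read 1.54, 1.88 and 1.64 in wild type and 1.60, 1.80 and 1.65 in knockout, and Mcm4 0.76, 0.79 and 0.80 against 0.67, 1.0 and 0.69.

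CDC6 and CDT1 are the loaders that bring the helicase to the origin complex. Cdc6 read -1.99, -1.80 and -1.50 in wild type and -1.71, -1.57 and -1.31 in knockout, with overlapping groups and a log2 change of 0.24 ± 0.18 (adjusted p = 0.676, limma). Its second probe gave -0.02. After normexp background correction the second probe was the brighter one and gave 0.0014, while the first gave 0.14. Cdt1 read 0.73, 0.82 and 0.96 in wild type and 0.67, 0.96 and 0.94 in knockout, a log2 change of 0.02.

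**Figure D3:**
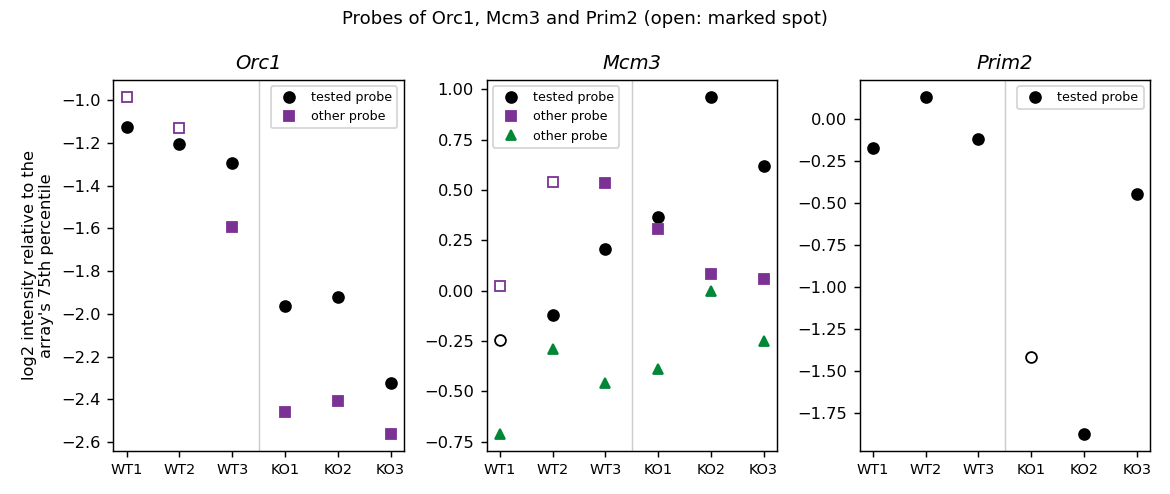
Log2 intensity relative to the array's 75th percentile for each probe of Orc1, Mcm3 and Prim2 on the 3 wild-type and 3 knockout arrays. Open symbols are marked spots that were left out of the test, and levels of different probes are not comparable. Both Orc1 probes are lower on all knockout arrays, the Mcm3 probes differ in direction, and the Prim2 probe is low on knockout replicate 2, at -1.87, but at -0.45 on knockout replicate 3.

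The 5 genes that activate the helicase had a median log2 change of -0.01. Cdc45, whose product rides with the helicase at the fork, was unmarked on 2 arrays per genotype and read -0.96 and -1.11 in wild type and -1.51 and -1.39 in knockout. Those groups did not overlap, and the log2 change was -0.42 ± 0.16 (SE; adjusted p = 0.465, limma). With marked spots kept, a brighter probe, unmarked on only 1 array per genotype, took its place and gave 0.11, while the first probe gave -0.26 with its marked spots kept, so the probes differ in direction. Gins2 read -0.73, -0.01 and -0.55 in wild type and -0.81, -0.84 and -0.53 in knockout, and its log2 change of -0.29 ± 0.21 (adjusted p = 0.664, limma) came with overlapping groups. Gins1, a second subunit of the same complex, had a log2 change of 0.18 ± 0.17 (adjusted p = 0.765, limma), and -0.03 with marked spots kept. Gins3, a further subunit, read 1.73, 1.68 and 1.72 in wild type and 1.82 and 1.77 on the unmarked knockout arrays, a log2 change of 0.08. Gins4, the fourth subunit and outside the 39 genes, had a log2 change of -0.23 ± 0.13 (adjusted p = 0.559, limma). The GINS subunits thus carried both signs. Mcm10, a factor needed to start unwinding, read 0.01, 0.48 and 0.06 in wild type and 0.11, 0.13 and 0.28 in knockout, a log2 change of -0.01.

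Among the polymerase and primase genes the 5 tested had a median log2 change of -0.06. Prim2, the large subunit of the primase that lays the RNA primer, had the largest log2 change of the 37 and the least certain. It read -0.17, 0.13 and -0.12 in wild type and -1.87 and -0.45 on knockout replicates 2 and 3, with replicate 1 marked. Knockout replicate 2 lay far below its partner, and the knockout SD was 1.01 against 0.16 in wild type. The log2 change was -1.11 ± 0.41 (SE; adjusted p = 0.424, limma). The marked spot of knockout replicate 1 read -1.41, also below all wild-type arrays. With the slide column as a block the value was -2.01, the difference between the replicate 2 arrays, since column 1 then lacked a knockout value. Only 1 probe reads Prim2. Prim1, the small catalytic subunit that works in the same dimer, read 0.25, 0.91 and 0.48 in wild type and 0.40, 0.53 and 0.62 in knockout, a log2 change of -0.04. Whether the primase subunits differ from each other was not tested. Pola1, the catalytic subunit of polymerase alpha, had a log2 change of -0.06 ± 0.26, Pold1, that of polymerase delta, 0.09 ± 0.17, and Pole, that of polymerase epsilon, -0.10 ± 0.27. Pole had one of the widest wild-type spreads, with -1.30, -0.22 and -0.56, around knockout levels of -0.92, -0.71 and -0.74. Pola2, the accessory subunit of polymerase alpha, could not be tested, and with its 2 marked spots kept the log2 change was -0.04 ± 0.19.

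The 7 tested genes of the clamp loader and of strand completion had a median log2 change of -0.09. The clamp loader opens the PCNA ring and places it on DNA. Rfc4 read 1.26, 1.56 and 1.27 in wild type and 1.20, 1.25 and 1.11 in knockout. The groups did not overlap, by a narrow margin, and the log2 change was -0.18 ± 0.13 (adjusted p = 0.679, limma). Its second probe gave 0.13 ± 0.13 without wild-type replicate 2, where its spot was marked. That marked spot read 0.85, above all knockout arrays of the second probe, so the difference in sign between the probes is uncertain. Rfc5 read 0.81, 1.44 and 0.91 in wild type and 0.84, 0.79 and 0.85 in knockout. Its log2 change of -0.22 ± 0.18 (adjusted p = 0.709, limma) had its highest array in wild-type replicate 2, and over 18 alternative settings it ranged from -0.35 to -0.03. Rfc3 and Rfc2 had log2 changes of -0.09 and -0.03. Rpa2, a subunit of the protein that coats single-stranded DNA, read -1.08 and -0.54 in wild type and -0.28 and -0.29 in knockout on 2 unmarked arrays each, a log2 change of 0.52 ± 0.23 (adjusted p = 0.51, limma). The wild-type arrays differed from each other by more than that value. Fen1, the nuclease that trims Okazaki fragments, had a log2 change of 0.09 ± 0.12, and Lig1, the ligase that joins them, -0.13 ± 0.18. Pcna, the clamp itself, was marked on 4 arrays and could not be tested. With marked spots kept it read 2.82, 2.98 and 2.78 in wild type and 2.80, 2.86 and 2.87 in knockout, a log2 change of -0.02 ± 0.12 (adjusted p = 0.979, limma).

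In the remaining roles no gene reached an unadjusted p under 0.05. The 4 nucleotide supply genes had a median log2 change of -0.02. Rrm1 and Rrm2, the subunits of ribonucleotide reductase, gave -0.05 ± 0.26 and 0.16 ± 0.24, and the thymidylate synthase gene Tyms gave 0.01 ± 0.17. Tk1, thymidine kinase, read 1.18, 2.08 and 1.43 in wild type and 1.29, 1.14 and 1.52 in knockout, a log2 change of -0.24 ± 0.24, with the highest level on wild-type replicate 2. Of the chromatin genes, Chaf1a and Chaf1b, subunits of the factor that deposits histones behind the fork, gave 0.06 ± 0.22 and 0.02 ± 0.21, and Uhrf1, which helps to copy DNA methylation, gave 0.10 ± 0.19. Of the S phase entry genes, Ccne1 and Ccne2, the E-type cyclins, gave 0.23 ± 0.26 and 0.09 ± 0.22, and the transcription factor gene E2f1 gave -0.02 ± 0.16. Ccne1 read -1.66, -0.82 and -1.58 in wild type and -0.85, -1.08 and -1.43 in knockout, so its highest and its lowest array were both wild type. For 10 of the 39 genes a second probe was also tested, each probe on its own unmarked arrays. The log2 change of the second probe had the same sign as the first in 6 of them.

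The replication genes also differed between mice of 1 genotype, and here they did so as a group. Each gene was centred on its mean over the 6 arrays, and the 24 genes measured on all 6 arrays were averaged on each array. The mean was -0.20, 0.27 and 0.03 log2 units on wild-type replicates 1 to 3 and -0.06, -0.01 and -0.04 on knockout replicates 1 to 3. The lowest and the highest array were thus both wild type, and the knockout arrays lay together between them. Over all 12644 features with a symbol and on all arrays the same means ran only from -0.07 to 0.05, with 0.04 and 0.05 on wild-type replicates 1 and 2. Wild-type replicate 2 held the highest level of 16 of the 24 genes (66.7%, against 23.1% of those features), and wild-type replicate 1 the lowest level of 15 (62.5%, against 10.9%). This is a description of these mice with no test, since each is 1 animal.

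**Figure D4:**
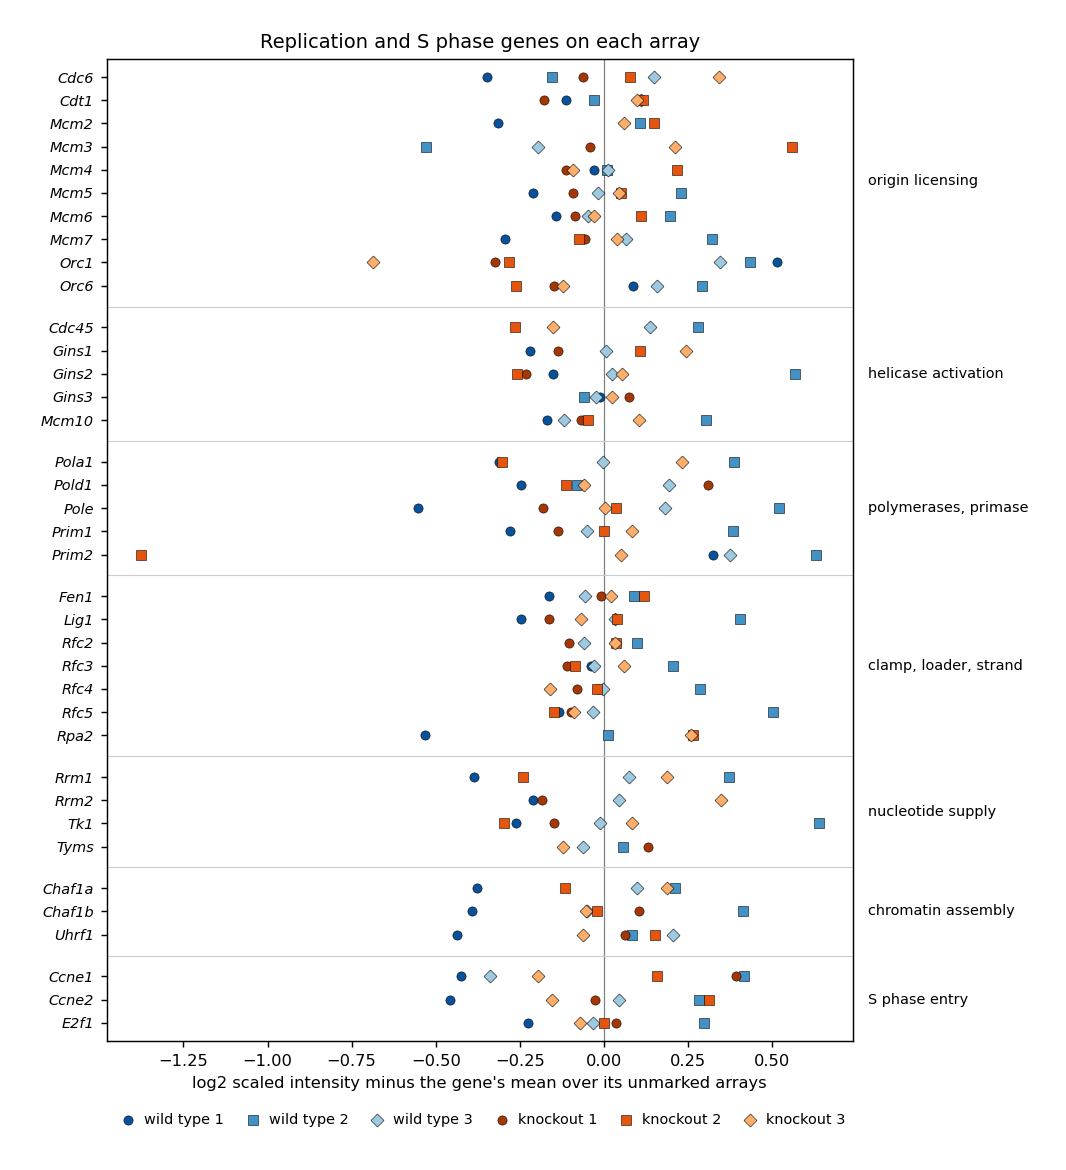
Level of each of the 37 tested genes on each array, as log2 intensity minus the mean of that gene over its unmarked arrays, grouped by role. Of the 24 genes on all 6 arrays, wild-type replicate 2 (blue squares) is the highest for 16 and wild-type replicate 1 (dark blue circles) the lowest for 15. For Orc1 and Orc6 the knockout arrays (brown and orange) all lie to the left of the wild-type arrays.

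Set directly against each other, wild-type replicate 2 was above wild-type replicate 1 for 29 of the 31 genes unmarked on both, with a median difference of 0.52 log2 units. Over all features with a symbol 50.1% were higher on replicate 2 and the median difference was 0.00034. The difference reached 1.07 for Pole, 0.90 for Tk1, 0.84 for Ccne1, 0.80 for Chaf1b and 0.76 for Rrm1, so it crossed polymerases, nucleotide supply, cyclins and chromatin assembly. Orc1 and Gins3 were the exceptions, at -0.08 and -0.05. Of the genes with a further probe unmarked on both arrays, 7 of 7 were also higher on replicate 2 by that probe, by 0.21 to 0.95. Wild-type replicate 3 lay between the others, above replicate 1 for 29 of 31 genes with a median of 0.22, and above replicate 2 for 7 of 33. Of all features with a symbol 36.3% were higher on replicate 3 than on replicate 1, and 35.5% higher than on replicate 2. The median difference over those features was -0.10 in both cases. The medians between knockout mice were smaller: replicate 2 was above replicate 1 for 18 of 27 genes with a median of 0.09, replicate 3 above replicate 1 for 20 of 30 with a median of 0.08, and replicate 3 above replicate 2 for 16 of 34 with a median of -0.01. Over all features with a symbol the shares for these pairs were 64.3%, 55.4% and 43.2%. The median range over the 3 wild-type arrays was 0.51 and over the 3 knockout arrays 0.21, whereas over all features with a symbol these were 0.31 and 0.33.

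Other replication genes, from a list of 47 that holds none of the 39, also had wild-type replicate 1 lowest and replicate 2 highest. Their means over the 23 measured on all arrays were -0.12, 0.24 and -0.01 on the wild-type arrays and -0.05, -0.04 and -0.04 on the knockout arrays. Related lists did not all share this. For 19 genes of E2F and cyclin control the lowest mean was -0.10 on knockout replicate 1 and the highest 0.08 on knockout replicate 2. Over 6 further nucleotide genes wild-type replicate 2 was highest, at 0.14, but knockout replicate 3 was lowest, at -0.11, with wild-type replicate 1 at -0.01. Genes of G2 phase and mitosis shared the high level on wild-type replicate 2, with 0.41, and all 17 of those unmarked on both arrays were higher there than on replicate 1, by a median of 0.52. They did not share the evenness of the knockout mice: their mean was -0.36 on knockout replicate 2 and 0.10 on knockout replicate 3, and 24 of 24 were higher on the latter by a median of 0.45. S phase genes and mitotic genes were thus both higher on wild-type replicate 2 than on replicate 1, while between knockout replicates 2 and 3 the median difference was 0.45 for the mitotic genes and -0.01 for the S phase genes. The 8 measured crypt base and stem cell markers, all well above background on all 6 arrays, had sums of 12.8, 12 and 13.1 times the 75th percentile on the wild-type arrays and 11.6 to 12.7 on the knockout arrays. The T and NK cell sum was 5.17, 3.71 and 5.69 on the wild-type arrays and 3.96, 4.72 and 6.83 on the knockout arrays. The epithelial sum was 123, 107 and 109 on the wild-type arrays and the goblet cell sum 96.5, 87.3 and 92.4. Among the wild-type arrays the crypt base, T and NK cell, epithelial and goblet cell sums were lowest on replicate 2. The surface colonocyte sum, at 124, 119 and 114, and the macrophage sum, at 2.01, 1.97 and 1.91, were lowest on replicate 3. Sums of B and plasma cell (0.29, 0.31 and 0.26), endothelial (0.47, 0.52 and 0.44) and erythroid markers (0.61, 0.63 and 0.58) were highest on replicate 2. The fibroblast and smooth muscle sum, at 13.8, 15.7 and 14.5, was highest on replicate 2. A sum follows its brightest genes, and centred means over the markers measured on all 6 arrays gave another order for some lists. On wild-type replicates 1 to 3 they were 0.31, -0.18 and -0.12 for fibroblasts and smooth muscle, lowest on replicate 2. For the crypt base and stem cell markers they were 0.03, 0.08 and 0.15, lowest on replicate 1. For the macrophage markers they were 0.01, 0.02 and 0.19, highest on replicate 3. The epithelial, goblet cell and T and NK cell means, over 2, 4 and 10 markers, were lowest on replicate 2, as the sums were. Marked spots made up 17.3% of wild-type replicate 1 and 15.5% of replicate 2. The part of these in the difference between mice was not tested.

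**Figure D5:**
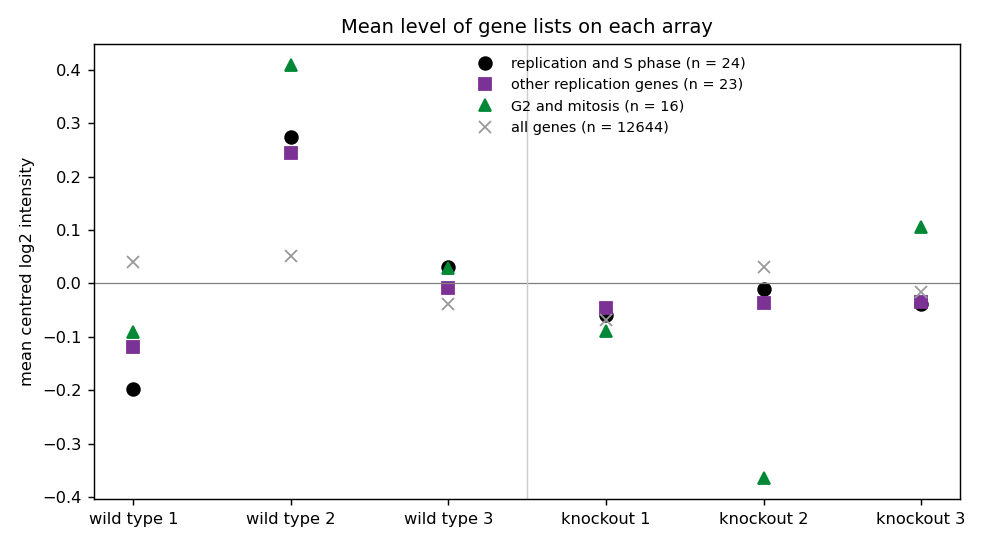
Mean centred log2 intensity on each array of the 24 replication and S phase genes measured on all 6 arrays (black), 23 other replication genes (purple), 16 G2 and mitosis genes (green) and 12644 features with a symbol (grey crosses). The replication means run from -0.20 on wild-type replicate 1 to 0.27 on wild-type replicate 2, and the G2 and mitosis mean is -0.36 on knockout replicate 2.

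This spread bears on the comparison of genotypes. Without wild-type replicate 1 the median log2 change of the tested replication genes was -0.13, and without wild-type replicate 2 it was 0.12, so its direction turned with the wild-type mouse left out. Within slide columns it was 0.10 in column 1 and -0.31 in column 2. It was 0.02 for wild-type replicate 3 and knockout replicate 3, which lay in different columns. The number of genes with a lower level at an unadjusted p under 0.05 was 1 without wild-type replicate 2 or without knockout replicate 2, and the number with a higher level was 0 without wild-type replicate 3, knockout replicate 2 or knockout replicate 3.

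Of the wider cell cycle network 0 genes passed the adjusted threshold. Of the 47 other replication genes 34 were tested, and at an unadjusted p under 0.05 there was 1 lower and 1 higher gene. The lower one was Brca1, which protects and repairs stalled forks, with a log2 change of -0.38 ± 0.11 (adjusted p = 0.316, limma), and the higher one was Orc2. Of 15 further nucleotide metabolism genes 10 were tested and 0 reached that p in either direction; Samhd1, which breaks down deoxynucleotides, gave -0.27 ± 0.18. Of 32 genes for E2F, cyclin and inhibitor control 25 were tested, with 0 lower and 1 higher. The higher one was Fbxw7, part of the ubiquitin ligase that marks cyclin E for destruction, at 0.31 ± 0.11 (adjusted p = 0.415, limma). E2f2, an activating E2F, gave 0.39 ± 0.17, Cdk6, a kinase of G1, 0.33 ± 0.15, and Myc, which drives growth and S phase entry, -0.36 ± 0.17 on 2 arrays per genotype. The inhibitor genes Cdkn1a and Cdkn1b gave -0.16 ± 0.14 and -0.12 ± 0.13. Of 32 G2 and mitosis genes 25 were tested, 22 had a negative log2 change (88%, against 57.1% of all features with a symbol) with a median of -0.18, and 1, the kinesin gene Cenpe at -0.46 ± 0.19 (adjusted p = 0.46, limma), reached an unadjusted p under 0.05. That median stayed negative under all 18 alternatives, and so did the median over all features. With the slide column as a block the G2 and mitosis median was -0.37, against -0.10 over all features. With wild-type replicate 2 left out both were -0.04. After knockout replicate 2 was dropped the G2 and mitosis median was -0.10, against -0.08 over all features. Dropping any other single array gave -0.32 to -0.23, against -0.10 to -0.04 over all features. The list stood highest on wild-type replicate 2 and lowest on knockout replicate 2. The number of its genes at an unadjusted p under 0.05 was 5 without knockout replicate 3 and 0 without wild-type replicate 2, wild-type replicate 3 or knockout replicate 2. For the E2F and cyclin list it was 2 without wild-type replicate 3 or knockout replicate 3, 0 without wild-type replicate 1, wild-type replicate 2 or knockout replicate 2, and 4 with trend and robust variance. For the other replication genes it was 3 without wild-type replicate 1 or 2 and 1 without wild-type replicate 3, knockout replicate 2 or knockout replicate 3, and for the nucleotide genes 1 without wild-type replicate 3. The proliferation marker Mki67 gave 0.03 ± 0.16 and Top2a, which untangles replicated DNA, 0.19 ± 0.33, each on 2 arrays per genotype. The stem cell marker Lgr5 gave -0.16 ± 0.26. Cdk1 and Ccnd1 were not among the tested features.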

How the data were processed

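RNA from 6 mice was hybridised to Agilent one-colour (Cy3) arrays. The deposited scanner files give a processed intensity per spot, background-subtracted and detrended by Feature Extraction 11.5.1.1 per the file headers (10.7 per the submitters' processing notes), without scaling between arrays. Each of 62976 spots was read, 3671 control spots were dropped, log2 was taken and the array's 75th percentile subtracted. Spots that carried a non-uniformity, population outlier or manual flag were dropped, except in the marker sums, and spots of 1 probe averaged. Probe accessions were matched to RefSeq symbols (GRCm38.p6). The array was designed on mm9, so probe coordinates were not used. Probes well above background on at least 3 arrays and unmarked on at least 2 per genotype were tested, and for a gene with several the probe with the highest mean, leaving 27916 features. Genotypes were compared with limma 3.58.1 in R 4.3.3 (lmFit, eBayes, two-sided, no covariate), adjusted by Benjamini-Hochberg over all features. The procedure was tested on simulated data. Intervals are 95% from limma. With 3 arrays per group an exact permutation test cannot go below 0.1, and the number of arrays limits the precision.

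The members and gene lists were chosen with earlier results of these data known. Named with log2 change, SE and adjusted p are the 12 members with the smallest p. In the other lists up to 3 genes with the smallest p are named, and a fixed set of 8 cell cycle and stem cell genes. Orc4 is named in addition, beside the other subunits of its complex. Alternatives changed the background correction, scaling, source of values, filter, marked spots, choice of probe, variance model and array weights. Others blocked on slide column or on a title that begins with S405, kept only the S405 mice, or left out each array. Normexp was run on the median signal with an offset of 50, as the files hold no mean signal column. The deposited series table was on the linear scale of the scanner files, with 99.7% of values within 0.01 log2 units of them and column medians of 231, 234, 247, 259, 228 and 241, so scale and direction are known and no centring was found. Protein sequences were not used here.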

Additional observations from a re-analysis of the deposited data

How the results depend on the processing

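No member passed the adjusted threshold under any of the 18 alternatives to the comparison of genotypes, and the lowest adjusted p was 0.053, for Orc1 with trend and robust variance. The number of members lower at an unadjusted p under 0.05 ranged from 1 to 4 when 1 array was left out, and the number higher from 0 to 1. The number higher was 2 with marked spots kept, 2 with trend and robust variance and 0 with only the mice whose titles begin with S405. With marked spots kept Cdc45 was 0.11 and Gins1 -0.034, the opposite sign. For Cdc45 another probe was then the brightest and the first gave -0.26, and for Gins1 the marked spot of wild-type replicate 2, at -0.59, entered the mean. The other 10 named members kept their sign in every alternative that gave a value. The mean of a gene's probes is a weak check, since a probe marked on some arrays shifts the mean there. By that setting Rfc4 gave -0.26, although its probes gave -0.18 and 0.13, and Gins1 gave 0.42, although both its probes gave 0.18. The normexp and array-mean alternatives with other sources, probes or members were added after seeing the data. Under 7 alternatives the array means kept wild-type replicate 1 lowest (-0.24 to -0.17) and replicate 2 highest (0.23 to 0.29), while the means of the knockout arrays, close to 0, changed order; knockout replicate 3 was 0.03 with marked spots kept. The title numbers pair no mice. One block set the S405 mice apart from wild-type replicate 3 and knockout replicate 3, whose titles share no number series. It left the median at -0.0035, while the deposited series table gave 0.0016. The slide column block rests on replicates 1 and 2 of each genotype, which are the S405 mice, so those settings are not separate checks. Tests of 2 against 2 or 3 arrays assume the spread pooled by limma. What the arrays cannot show at n = 3 is a small difference: the median standard error of the members was 0.18 log2 units.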
